A study of Homo sapiens with 4 samples.

Results

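Complexes II to V take part in oxidative phosphorylation, and the genes described here are 39 nuclear genes that encode their subunits together with cytochrome c. They were chosen by name: 4 genes of complex II, 10 of complex III and cytochrome c, 10 of complex IV and 15 of complex V, out of 61541 gene identifiers in the count table. The table holds 4 RNA-seq libraries of MHCC97H, an established human hepatocellular carcinoma cell line. Of these, 2 libraries came from control cells carrying the control hairpin shCon, and 2 came from cells in which UBXN1 was knocked down by a short hairpin RNA (shUBXN1). UBXN1 is a UBX-domain cofactor of the ATPase VCP, and the study asked what its loss does to mitochondria in liver cancer cells. Hairpins were delivered by lentivirus into stably infected cells. Which UBXN1 hairpin was used for these libraries is not given in the sources used here, and neither is whether the libraries of a group came from separate cultures. The p-values below thus rest on the spread between these libraries, estimated in part over other genes. That spread may be technical.

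Electrons from succinate enter the chain at complex II, succinate dehydrogenase, and are passed through coenzyme Q to complex III, the cytochrome bc1 complex. Complex III hands them to cytochrome c, a small soluble carrier that also triggers apoptosis when it leaves the mitochondrion. Complex IV, cytochrome c oxidase, gives them to oxygen, and complex V, the ATP synthase, uses the proton gradient built by complexes I, III and IV to make ATP. All subunits of complex II are encoded in the nucleus, whereas complexes III, IV and V are assembled from nuclear subunits and a few subunits encoded by mitochondrial DNA. The liver is rich in these complexes.

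The libraries held between 23373700 and 27380508 assigned counts. The UBXN1 transcript itself was at 67.1 and 77.3 CPM (the count relative to the library size, scaled by the TMM method) in the control libraries and at 16.8 and 18.5 CPM in the knockdown libraries, which is 24.5% of the control level. Of the liver and hepatoma markers, the keratin genes KRT8 and KRT18 were abundant (895 CPM or more in every library), while the hepatocyte gene ALB was low and fell from 18.0 and 17.2 CPM to 4.20 and 4.78 CPM. Of all 9 such markers 5 were lower, 2 were higher (SERPINA1 and KRT18) and 2 did not pass an adjusted p under 0.05. That is 77.8% called, against 56.2% of all genes tested (28.0% higher and 28.2% lower). Of 6 markers of other cell types, the endothelial gene PECAM1 was at 33.2 to 43.0 CPM and the other 5 were at or below 2.52 CPM in every library, among them the leukocyte gene PTPRC (at most 0.171 CPM). In bulk RNA of this kind, fewer cells of one state and less RNA per cell cannot be told apart.

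All 39 genes passed the filter on low counts. In edgeR (quasi-likelihood, Benjamini-Hochberg adjusted over 16863 genes) 9 of the 39 rose and 14 fell after UBXN1 knockdown at an adjusted p under 0.05, and 16 did not pass. That is 59.0% of the genes, against 56.2% of all genes tested (28.0% higher and 28.2% lower). Of the 16863 genes, 7489 had a mean level at or above that of the lowest of the 39, and there 68.4% passed, 26.8% higher and 41.5% lower. Read against these backgrounds, the share of the 39 that changed did not stand out. Their log2 fold changes had a median of -0.09, which was also the median of the 7489 genes at their level, beside 0.02 over all genes tested. Most changes were small. CYC1 was the only one of the 39 past a fold change of 2 with an unadjusted p under 0.05, a rule that 17.9% of all genes met (11.8% higher and 6.09% lower). The libraries of the groups did not overlap in 33 of the 39 genes (84.6%), against 78.0% of all genes tested and 84.9% of the 7489 genes at their level.

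**Figure D1:**
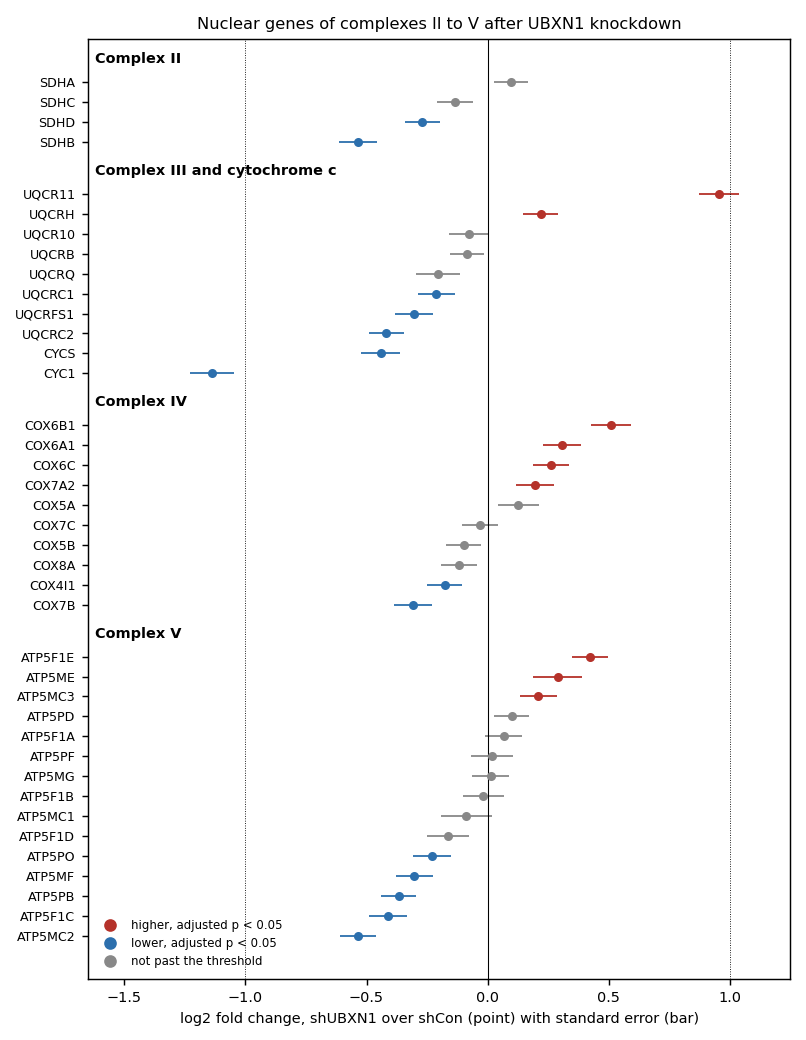
The log2 fold change of shUBXN1 over shCon (horizontal axis, dotted lines at a fold change of 2) is plotted for each of the 39 genes by complex, with bars for 1 standard error and colour for the call at an adjusted p under 0.05. Within every complex the genes spread to both sides of 0, from -1.14 for CYC1 to 0.96 for UQCR11, both in complex III.

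Counted by complex, the genes divided as follows. In complex II 2 of 4 genes fell and none rose, with a median log2 fold change of -0.20. In complex III with cytochrome c 5 of 10 fell and 2 rose, with a median of -0.21. In complex IV 4 of 10 rose and 2 fell, with a median of 0.05, and in complex V 3 of 15 rose and 5 fell, with a median of -0.02. Over all genes tested 28.2% were lower and 28.0% higher. Among the 7489 genes at or above the level of the lowest of the 39, 41.5% were lower and 26.8% higher. The difference between complexes was not tested. The split between rises and falls depended on the scaling. When libraries were scaled by their total counts 13 of the 39 genes rose and 11 fell, and after a cyclic loess normalisation 14 rose and 10 fell. Total count scaling moved the median of all genes to 0.10, and the 39 genes then had a median of -0.0038. The median of complex V turned positive under these scalings, at 0.066 and 0.092, while those of the other complexes kept their sign.

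Complex II oxidises succinate in its flavoprotein and iron-sulfur head and is held in the membrane by its anchors. SDHB, the iron-sulfur subunit (ENSG00000117118, GRCh38 chromosome 1, 17018664 to 17054032), was at 68.5 and 73.1 CPM in the control libraries and at 47.4 and 50.3 CPM after knockdown. Both knockdown libraries lay below both controls, and the log2 fold change was -0.53 ± 0.08 (SE; edgeR adjusted p = 4.46e-05). The membrane anchor SDHD (ENSG00000204370, chromosome 11, 112086824 to 112120016) was at 97.7 and 96.9 CPM in the controls and at 78.7 and 82.7 CPM after knockdown. It fell by 0.27 on the log2 scale (SE 0.07, edgeR adjusted p = 0.00563). This call did not survive leaving out either control library. The other anchor, SDHC, went from 66.3 and 69.0 CPM to 60.4 and 62.9 CPM and did not pass the test (log2 fold change -0.13, edgeR adjusted p = 0.145).

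SDHA, the flavoprotein that carries the succinate binding site, was at 172 and 170 CPM in the controls and at 181 and 184 CPM in the knockdown libraries, with a log2 fold change of 0.10 ± 0.07 that did not pass (edgeR adjusted p = 0.272). Its value is uncertain, because 4 pseudogenes of near-identical sequence also hold counts: those given to SDHAP1, SDHAP2, SDHAP3 and SDHAP4 together equalled 81.3% and 75.9% of the SDHA counts in the controls and 113% and 87.3% after knockdown. SDHAP3 alone rose from 15.6 and 13.9 CPM to 41.7 and 33.6 CPM. How far reads of SDHA were given to these copies was not tested.

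In complex III both nuclear redox subunits and both core proteins fell, and of the 5 small subunits 2 rose and 3 did not pass. For comparison, 28.2% of all genes tested were lower and 28.0% higher. The difference between these roles, which were grouped after the values were seen, was not tested. A further redox subunit, the mitochondrially encoded MT-CYB, did not pass (log2 fold change 0.24, edgeR adjusted p = 0.0848). CYC1 is cytochrome c1, the haem subunit that passes electrons to cytochrome c (ENSG00000179091, chromosome 8, 144095039 to 144097525). It was at 202 and 231 CPM in the control libraries and at 91.5 and 105 CPM after knockdown, so that both knockdown libraries lay far below both controls. With a log2 fold change of -1.14 ± 0.09, CYC1 was at 45.4% of its control level (edgeR adjusted p = 1.04e-07) and had the largest change of the 39 genes. The other nuclear redox subunit, the Rieske iron-sulfur protein UQCRFS1, was at 144 and 145 CPM in the controls and at 111 and 124 CPM after knockdown (log2 fold change -0.30, edgeR adjusted p = 0.0038).

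Both core proteins, which face the matrix and are related to mitochondrial processing peptidases, also fell. UQCRC2 (ENSG00000140740, chromosome 16, 21953288 to 21983660) went from 182 and 176 CPM to 132 and 136 CPM, without overlap of the groups. The log2 fold change was -0.42 ± 0.07 (edgeR adjusted p = 1.87e-04). UQCRC1 changed less, from 99.8 and 98.3 CPM to 81.1 and 90.0 CPM (log2 fold change -0.21, edgeR adjusted p = 0.0289), and lost its call in 5 of 16 alternative fits. CYCS, cytochrome c itself (ENSG00000172115, chromosome 7, 25118656 to 25125260), was at 213 and 233 CPM in the controls and at 154 and 174 CPM after knockdown. It thus stood at 73.6% of the control level, with a log2 fold change of -0.44 ± 0.08 (edgeR adjusted p = 3.80e-04). The genome carries 42 annotated pseudogenes of CYCS, whose counts together came to between 1.75% and 2.27% of those of the gene.

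The 5 small subunits of complex III surround the core and carry no redox centre. UQCR11, a small subunit of the membrane part (ENSG00000127540, chromosome 19, 1597169 to 1605473), was at 33.9 and 33.4 CPM in the controls and at 68.4 and 62.2 CPM after knockdown. That is 194% of the control level, the largest rise among the 39 genes, with a log2 fold change of 0.96 ± 0.08 (edgeR adjusted p = 2.39e-07). A readthrough gene without a symbol, ENSG00000267059, shares at most 11.0% of the exon bases of UQCR11 and held between 3.68 and 93.3 counts per library. The hinge protein UQCRH (ENSG00000173660, chromosome 1, 46303698 to 46316776), which helps cytochrome c1 and cytochrome c to dock, was at 127 and 136 CPM in the controls and at 152 and 154 CPM after knockdown. This rise was small (log2 fold change 0.22 ± 0.07, edgeR adjusted p = 0.02) and was lost without either control library and after removal of a trend on GC content. UQCRB, UQCRQ and UQCR10 had log2 fold changes of -0.09, -0.21 and -0.08 and did not pass. UQCRQ, at an edgeR adjusted p of 0.0695, had about the fold change of the core protein UQCRC1, which passed.

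The genes around CYC1 and UQCR11 were mixed in direction. Within 250 kb of CYC1 22 genes were tested, of which 10 were called higher and 6 lower, with a median log2 fold change of 0.31, and by the fold change rule 1 neighbour was lower, HGH1, and 5 were higher. Within 250 kb of UQCR11 23 genes were tested, 6 higher and 9 lower, with a median of -0.23, and 3 were lower and 3 higher by the fold change rule. Over all genes tested 28.0% were higher and 28.2% lower.

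**Figure D2:**
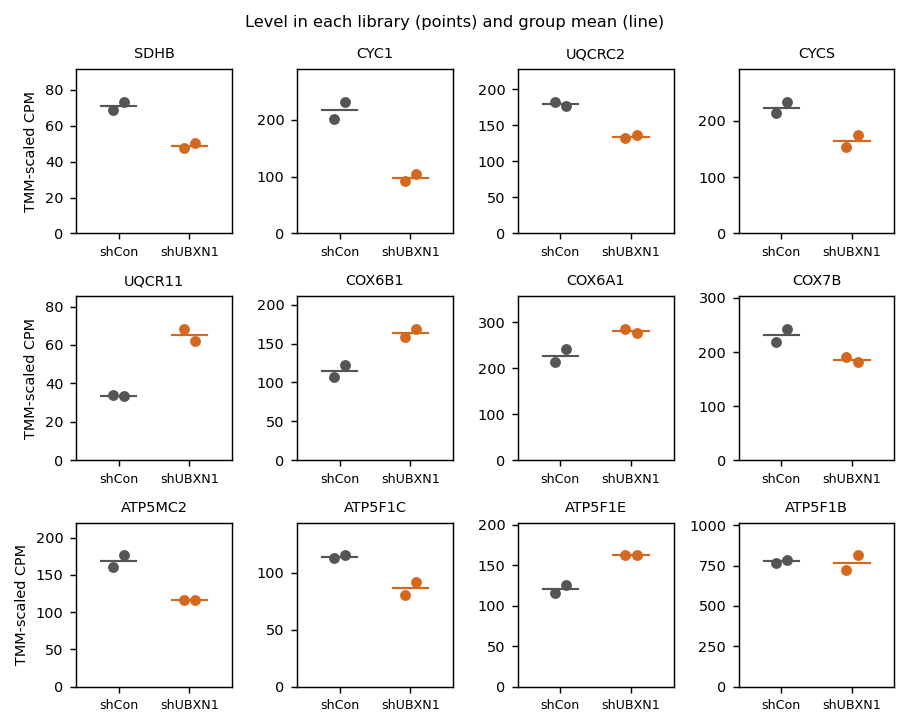
TMM-scaled CPM (vertical axes, each starting at 0) is shown for 12 of the genes in the 2 shCon and the 2 shUBXN1 libraries, with a point per library and a line at the group mean. The groups are apart for 11 of these genes and overlap for ATP5F1B, which lies between 720 and 813 CPM.

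Complex IV has a catalytic core of mitochondrially encoded subunits, wrapped in nuclear ones. The 3 genes COX6A1, COX6B1 and COX6C, which encode different subunits and were grouped after the values were seen, all rose. Among all genes tested 28.0% were higher. COX6B1, on the intermembrane face where cytochrome c binds (ENSG00000126267, chromosome 19, 35648323 to 35658782), was at 107 and 123 CPM in the control libraries and at 159 and 169 CPM after knockdown. The knockdown libraries lay above both controls, at 142% of their mean, with a log2 fold change of 0.51 ± 0.08 (edgeR adjusted p = 1.02e-04). COX6A1, the widely expressed form of subunit 6A (ENSG00000111775, chromosome 12, 120438090 to 120440737), was at 214 and 241 CPM in the controls and at 286 and 277 CPM after knockdown. Its rise of 0.31 ± 0.08 on the log2 scale (edgeR adjusted p = 0.0043) was lost when the first control library was left out. COX6C, a membrane subunit, went from 148 and 153 CPM to 186 and 175 CPM (log2 fold change 0.26, edgeR adjusted p = 0.00733).

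The remaining subunits of complex IV were mixed. COX7B (ENSG00000131174, chromosome X, 77899440 to 77907376), a small membrane subunit, was at 219 and 243 CPM in the controls and at 191 and 181 CPM after knockdown. Both knockdown libraries were lower, by -0.31 ± 0.08 on the log2 scale (edgeR adjusted p = 0.00393), but the call was lost without the second control library and under cyclic loess. COX4I1, the widely expressed form of the largest nuclear subunit (ENSG00000131143, chromosome 16, 85798633 to 85807068), went from 197 and 204 CPM to 180 and 175 CPM. At -0.18 ± 0.07 it passed by little (edgeR adjusted p = 0.0485) and lost its call in 6 of 16 alternative fits. COX7A2 rose from 39.3 and 40.2 CPM to 45.9 and 45.2 CPM (log2 fold change 0.20, edgeR adjusted p = 0.0467). The call for COX7A2 was lost in 5 of 16 alternative fits, DESeq2 among them, and that for COX6C in 2 of 16. COX5A, COX5B, COX7C and COX8A had log2 fold changes between -0.12 and 0.13 and did not pass. Of the subunit isoforms known from other tissues, COX4I2, COX6A2, COX7A1 and COX8C were at 0 counts in all 4 libraries. COX7B2 was detected, at 11.9 and 10.3 CPM in the controls and 7.15 and 8.03 CPM after knockdown (log2 fold change -0.56, edgeR adjusted p = 0.00609), and COX6B2 was at or below 0.688 CPM in every library.

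Complex V joins a catalytic head, F1, to a ring of c subunits in the membrane, with a central stalk that turns and a peripheral stalk that holds the head still. The catalytic beta subunit ATP5F1B (ENSG00000110955, chromosome 12, 56638175 to 56645984) was at 764 and 787 CPM in the controls and at 720 and 813 CPM after knockdown. The groups overlapped, and the log2 fold change of -0.02 ± 0.09 did not pass (edgeR adjusted p = 0.878). Its partner in the head, the alpha subunit ATP5F1A, was at 213 to 234 CPM in all libraries with overlapping groups (log2 fold change 0.07, edgeR adjusted p = 0.48). The central stalk was less even. ATP5F1C, the gamma subunit that forms the turning shaft (ENSG00000165629, chromosome 10, 7788147 to 7807815), was at 113 and 115 CPM in the controls and at 80.7 and 91.4 CPM after knockdown (log2 fold change -0.41 ± 0.08, edgeR adjusted p = 4.75e-04). ATP5F1E, the epsilon subunit at the foot of that shaft (ENSG00000124172, chromosome 20, 59025475 to 59032345), was at 116 and 125 CPM in the controls and at 162 CPM in both knockdown libraries. It was one of the clearest rises, at 0.42 ± 0.07 on the log2 scale (edgeR adjusted p = 2.16e-04). TUBB1, on the other strand, covers 23.2% of the exon bases of ATP5F1E, and whether the counting used strand is not given in the sources used here. ATP5F1D, the delta subunit, went from 50.2 and 55.9 CPM to 44.7 and 50.0 CPM and did not pass (edgeR adjusted p = 0.124).

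Of the 4 peripheral stalk genes 2 fell and none rose, beside 28.2% lower and 28.0% higher among all genes tested. ATP5PB, the b subunit that spans the membrane, was at 97.8 and 99.6 CPM in the controls and at 74.5 and 78.5 CPM after knockdown (log2 fold change -0.37, edgeR adjusted p = 6.43e-04). ATP5PO, which joins the stalk to the head, went from 55.8 and 52.4 CPM to 45.6 and 46.7 CPM (log2 fold change -0.23, edgeR adjusted p = 0.0208) and lost its call in 6 of 16 alternative fits. ATP5PD and ATP5PF did not pass, at 0.10 and 0.02 on the log2 scale. Genes on the opposite strand, JAM2 and GABPA, cover up to 34.4% of the exon bases of ATP5PF. Among the small membrane subunits ATP5MF (ENSG00000241468, chromosome 7, 99448475 to 99466186) was at 138 and 153 CPM in the controls and at 115 and 120 CPM after knockdown (log2 fold change -0.30 ± 0.08, edgeR adjusted p = 0.00402). The call for ATP5MF was lost without the second control library. ATP5ME (ENSG00000169020, chromosome 4, 672436 to 674330) was at 27.5 and 34.1 CPM in the controls and at 37.5 and 37.6 CPM after knockdown (log2 fold change 0.29 ± 0.10, edgeR adjusted p = 0.0255). Its rise is uncertain, since the gene MYL5 on the opposite strand covers 61.3% of its exon bases and itself rose from 179 and 158 counts to 392 and 335 counts. The call for ATP5ME was also lost in 3 of 16 alternative fits. ATP5MG did not pass, at 98.7 and 106 CPM against 99.1 and 107 CPM (0.01 on the log2 scale).

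The c ring is made of 1 protein that 3 genes encode, ATP5MC1, ATP5MC2 and ATP5MC3, which differ in their import sequences and give the same mature subunit. ATP5MC2 (ENSG00000135390, chromosome 12, 53632726 to 53677408) was at 161 and 176 CPM in the controls and at 116 CPM in both knockdown libraries, with a log2 fold change of -0.53 ± 0.07 (edgeR adjusted p = 3.02e-05). ATP5MC3 (ENSG00000154518, chromosome 2, 175176258 to 175181710) moved the other way, from 126 and 133 CPM to 144 and 155 CPM (log2 fold change 0.21 ± 0.08, edgeR adjusted p = 0.0289), a call that was lost without either control library. ATP5MC1 (ENSG00000159199, chromosome 17, 48892765 to 48895871) was the least abundant, at 22.9 and 25.6 CPM against 21.4 and 24.2 CPM, and did not pass (-0.09 ± 0.11, edgeR adjusted p = 0.505).

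On the TPM scale, which divides the counts by gene length, ATP5MC2 made up 61.4% and 61.6% of c ring mRNA in the controls and 52.2% and 49.8% after knockdown. The share of ATP5MC3 went from 21.6% and 21.0% to 29.1% and 30.0%, and that of ATP5MC1 from 17.0% and 17.4% to 18.7% and 20.2%. The shares depended on the gene lengths in the deposited table. With the length of the Ensembl canonical transcript, an alternative chosen after the data were seen, ATP5MC2 held 75.2% and 75.3% of the control mRNA and 67.4% and 65.3% after knockdown. With any lengths the share of ATP5MC2 falls and that of ATP5MC3 rises. Their fold changes were the lowest and the highest of the c ring genes. The fold change of ATP5MC1 lay between them, so the direction of its share can depend on the lengths. On the CPM scale, which uses no lengths, the share of ATP5MC1 was 7.39% and 7.65% in the controls. After knockdown it was 7.61% and 8.18%, so that the groups overlapped.

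**Figure D3:**
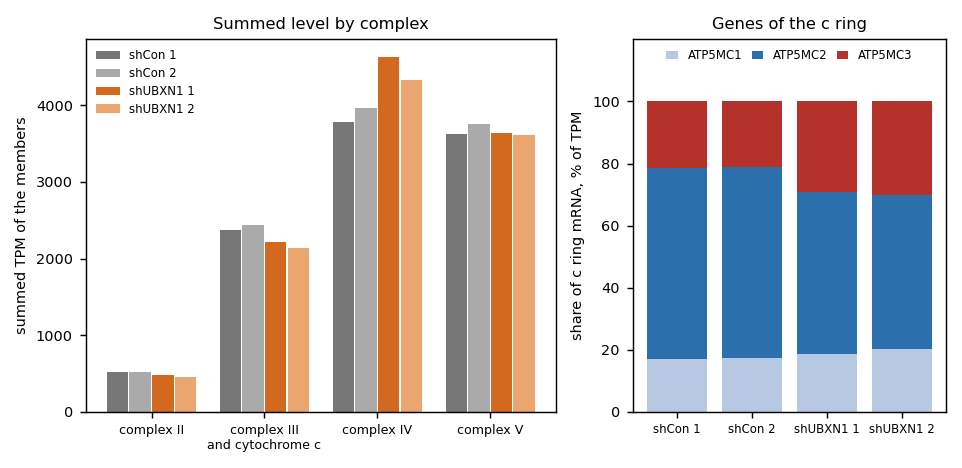
The left panel shows the TPM of the genes of each complex summed in each library (bars start at 0), and the right panel the share of each c ring gene in their summed TPM, in percent. The 2 shUBXN1 libraries are above both controls for complex IV and below them for complexes II and III, and the share of ATP5MC2 falls from 61.4% and 61.6% to 52.2% and 49.8%.

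Summed over its genes, complex II stood at 516 ± 3.05 TPM in the controls and 467 ± 11.9 TPM after knockdown (SD, n = 2 each), which is 90.3%. Complex III with cytochrome c went from 2400 ± 50.2 to 2170 ± 51.0 TPM, or 90.4%. Complex IV stood at 3870 ± 125 TPM in the controls and 4480 ± 209 TPM after knockdown, or 116%, and complex V stood at 3690 ± 93.5 and 3620 ± 20.3 TPM, or 98.1%. For complexes II, III and IV the libraries of the groups did not overlap, and for complex V they did. No test was run on these sums, and they are weighted by the most abundant genes. Unlike the fold changes above, they carry no TMM scaling. Their size depended on the scale, as given in the closing section on processing. Complex IV is led by COX6A1 and COX6B1 at mean levels of 972 and 658 TPM, both among the genes that rose, and complex V by ATP5F1B and ATP5MF at 896 and 583 TPM. In complex III the highest mean levels were those of CYCS (494 TPM) and UQCRB (435 TPM), and in complex II those of SDHD (136 TPM) and SDHA (134 TPM). UQCRB (ENSG00000156467, chromosome 8, 96222947 to 96235546), which binds near the quinone site, was at 212 and 217 CPM in the controls and at 204 and 201 CPM after knockdown (log2 fold change -0.09 ± 0.07, edgeR adjusted p = 0.327). The order between genes is tied to the deposited lengths: CYCS ranked 7 and UQCRB ranked 9 among the 39 by the deposited lengths, but 36 and 39 by canonical transcript length.

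Complexes III, IV and V also hold subunits encoded by mitochondrial DNA. Of these 6 genes 5 rose and none fell, with a median log2 fold change of 0.48. That is 83.3% called, against 56.2% of all genes tested (28.0% higher and 28.2% lower). How these calls fared in the alternative fits is not given here. The difference from the nuclear genes was not tested. MT-CO1, MT-CO2 and MT-CO3, the catalytic core of complex IV, had log2 fold changes of 0.41, 0.49 and 0.48. MT-ATP6 and MT-ATP8 of complex V had 0.50 and 0.71. MT-CYB, the cytochrome b of complex III, was at 2190 and 2380 CPM in the controls and at 2370 and 3020 CPM after knockdown, with overlapping groups (log2 fold change 0.24, edgeR adjusted p = 0.0848). Summed over these 6 genes the level went from 69600 ± 2560 to 99800 ± 7180 TPM, or 143% of the control, again without TMM scaling. All mitochondrially encoded genes took 5.28% and 5.59% of the counts in the controls and 7.43% and 8.27% after knockdown. Of the 37 nuclear genes of complex I 6 were higher and 10 lower, 43.2% called against 56.2% of all genes tested, with a median of -0.12. NDUFA1 had the largest rise among them (0.50) and NDUFA5 the largest fall (-0.78).

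The complexes are built with the help of assembly factors. Of 46 assembly factors tested 22 fell and 5 rose, with a median log2 fold change of -0.28, and no test was run on the lists. In all 58.7% of them were called, against 56.2% of all genes tested (28.2% lower and 28.0% higher). Among the 7489 genes at or above the level of the lowest of the 39, 41.5% were lower and 26.8% higher. Some of the assembly factors lie below that level. Complex IV assembly accounted for 15 of the genes that fell, out of 27 tested, with 1 that rose. COA3, which stabilises newly made MT-CO1, was at 43.3 and 45.1 CPM in the controls and at 13.0 and 13.9 CPM after knockdown, a log2 fold change of -1.72 ± 0.10 (edgeR adjusted p = 3.84e-09). SCO2, a copper carrier for complex IV, rose from 9.57 and 8.57 CPM to 14.6 and 12.7 CPM (log2 fold change 0.59, edgeR adjusted p = 0.00225).

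For complex V, ATPAF1, a chaperone of the beta subunit, went from 45.4 and 40.2 CPM to 19.8 and 21.4 CPM (log2 fold change -1.06, edgeR adjusted p = 4.53e-07), while TMEM242 rose by 0.49 on the log2 scale. Of the 5 factors of complex V 3 fell and 2 rose, again beside 28.2% lower and 28.0% higher among all genes tested. SDHAF2, which attaches the flavin to SDHA, went from 42.4 and 45.3 CPM to 23.9 and 23.2 CPM (log2 fold change -0.90, edgeR adjusted p = 8.99e-07), 1 of 2 complex II factors that fell out of 4. The 10 factors of complex III were even, with 2 that rose, led by UQCC6 (0.51), and 2 that fell, led by UQCC3 (-0.64), and a median of -0.05.

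**Figure D4:**
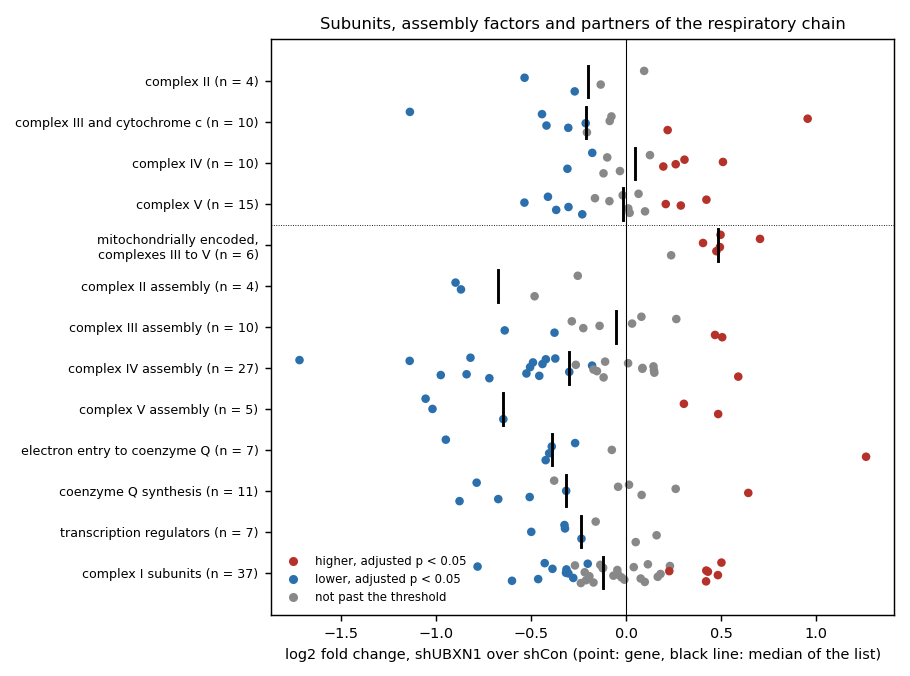
Each point is a gene at its log2 fold change of shUBXN1 over shCon (horizontal axis), coloured by its call at an adjusted p under 0.05, and black lines mark list medians. The 39 genes of complexes II to V, above the dotted line, have medians from -0.21 to 0.05, the mitochondrially encoded subunits 0.48 and the complex IV assembly factors -0.30.

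Coenzyme Q carries electrons to complex III from several enzymes besides complexes I and II. Of 7 genes of these enzymes 5 fell and 1 rose (median -0.39), 85.7% called against 56.2% of all genes tested. DHODH, the pyrimidine enzyme of the inner membrane, changed by -0.95 on the log2 scale. Of 11 genes of coenzyme Q synthesis 5 fell, led by PDSS2 (-0.88), and 1 rose, COQ8A (0.64). That is 54.5% in all, against 56.2% of all genes tested (28.2% lower and 28.0% higher). Among 8 further subunits and isoforms that could be tested 2 rose and 3 fell, 62.5% called against 56.2% of all genes tested. Those named by rule were NDUFA4, now counted as a subunit of complex IV, at 0.29 and the ATP synthase coupling factor DMAC2L at -0.57.

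Nuclear genes of the respiratory chain share regulators, among them the ETS factor GABP, NRF1 and YY1. Of 7 such regulators tested 4 fell and none rose, with a median of -0.23. All of the 57.1% called were lower, against 28.2% lower and 28.0% higher among all genes tested. Among the 7489 genes at or above the level of the lowest of the 39, 41.5% were lower, but NRF1 and PPARGC1B lie below that level. NRF1 was at 19.5 and 20.8 CPM in the controls and at 13.9 and 14.5 CPM after knockdown (log2 fold change -0.50, edgeR adjusted p = 0.00145). The GABP subunit genes GABPA and GABPB1 both had a log2 fold change of -0.32, and YY1 did not pass at 0.05. The coactivator gene PPARGC1A was too low to test.

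RefSeq promoter windows on GRCh38.p14, from 250 bases before to 50 bases after the start, were at hand for 31 of the 39 genes. The ETS core CCGGAA was present on either strand in 22 of them (71.0%), against 32.8% of 11671 tested genes and 20.1% of all 27305 genes with such windows. It stood in 6 of 7 genes that rose, 7 of 12 that fell and 9 of 12 that did not pass. The NRF1 core TGCGCA was in 32.3% (15.3% of tested genes), the YY1 core AAGATGG in 29.0% (9.0%), the Sp1 core GGGCGG in 58.1% (74.1%) and the TATA box TATAAA in 9.68% (8.99%), each searched on both strands. No motif contains another, and a gene with several windows was counted when any of them held the letters. A match is a description of the sequence and not a bound site. The 30-base stretches below are examples picked from genes that hold the core, some that rose and some that fell. Whether the core goes with the direction of change was not tested. They lie before the RefSeq start, are written on the strand of the gene, and have the core, CCGGAA or its reverse complement TTCCGG, in capitals. For COX6A1 and ATP5PB that start lies inside the GENCODE gene span. Their stretches thus lie within that span, in part for COX6A1 and in whole for ATP5PB. UQCR11 (chr19:1605541-1605570, minus strand), COX6B1 (chr19:35648293-35648322, plus), COX6A1 (chr12:120438083-120438112, plus) and UQCRH (chr1:46303641-46303670, plus) rose, and SDHB (chr1:17054143-17054172, minus), SDHD (chr11:112086785-112086814, plus), UQCRFS1 (chr19:29213205-29213234, minus) and ATP5PB (chr1:111449319-111449348, plus) fell.
UQCR11: actgtaagtggcTTCCGGgtctgcgcgcac
COX6B1: agtccccacctctctcagcTTCCGGctggt
COX6A1: attttccacttccgcTTCCGGcgctgcggc
UQCRH: agtgtgccgcacTTCCGGccagatcgccgg
SDHB: ccacccgggaaaCCGGAAgccgcctcccac
SDHD: ccgcctctcgacTTCCGGttcacccagcat
UQCRFS1: gcagaatttcctTTCCGGcggcgcgctgtc
ATP5PB: ctccatcctgctTTCCGGctgtcgccctca

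Across the 39 genes, which share the same 4 libraries, the log2 fold change had a Pearson r of -0.13 with GC content. The r was -0.19 with the log2 of deposited length and -0.08 with mean log2 CPM. The Spearman rho was -0.02, -0.31 and -0.02 in the same order. Genes that rose had a median deposited length of 674 bases and those that fell 1180 bases. Of the 23 genes that changed, 11 kept their call in all 16 alternative fits: SDHB, UQCRC2, UQCRFS1, CYC1, CYCS, ATP5F1C, ATP5PB and ATP5MC2 among those that fell, and UQCR11, COX6B1 and ATP5F1E among those that rose.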

How the data were processed

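Per the labels, mRNA libraries were prepared from total RNA of MHCC97H cells. The deposited table holds expected counts per gene, made by the authors from aligned reads, with a gene length (61541 identifiers, of which 99.7% matched a gene name table). The submitters' processing notes name HISAT2 2.0.4, StringTie 1.3.0 and GRCh37, whereas the methods of the study name GRCh38. The study also calls the control hairpin shRFP where the labels have shCon, and names another library kit than the labels do. The counting tool, annotation and strand setting are not given in the sources used here. Gene coordinates are those of GENCODE on GRCh38, matched by Ensembl identifier. Between 62.4% and 64.6% of non-zero values were whole numbers. Overlapping genes and pseudogenes can therefore share reads in fractions.

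Counts were rounded, filtered (filterByExpr), scaled by TMM and tested with edgeR 4.0.16 in R 4.3.3 (quasi-likelihood, no block, 2 residual degrees of freedom). The spread of each gene was drawn toward that of other genes, with a median of 12.1 prior degrees of freedom. SE was taken from the fold change and its F statistic, and TPM from the deposited lengths. The alternatives used DESeq2 1.42.0, limma 3.58.1, other scalings and filters, GC correction and fits without each library. Replicates correlated at 0.989 and 0.988 (Pearson, log2 CPM across genes) and differed by more than sampling noise. The members and lists were chosen with earlier results of these data known, and roles were grouped after values were seen. Full values were given to the 2 largest rises and falls and the 2 highest levels per complex, the c ring genes, and the largest rise and fall of each other list above a mean log2 CPM of 2; other values were added afterwards. Protein sequences were not used here.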

Additional observations from a re-analysis of the deposited data

How the results depend on the processing

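Across 16 alternative fits no gene that passed the test changed sign, and 11 of 23 kept their call. Leaving out 1 library gave 3 to 9 genes that rose and 8 to 16 that fell, the lowest without shCon replicate 1 and shCon replicate 2 (3 and 11, and 5 and 8). By complex, the counts that fell ranged from 1 to 2 in complex II, 4 to 6 in III, 0 to 2 in IV and 3 to 6 in V, and those that rose from 1 to 2 in III, 1 to 4 in IV and 1 to 3 in V. With 2 libraries per group, each such fit assumes that the lone library varies like the other group, and the cause of the losses was not tested.

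Cyclic loess gave 14 rises and 10 falls (complex II 1 rise, IV 0 falls, V 6 rises) and turned ATP5F1B to a called 0.15. Total count scaling gave 13 and 11 (II 1 rise, IV 1 fall, V 5 rises), log2 TPM gave 12 and 12 (II 1 rise, IV 1 fall), a minimum of 10 counts left 1 fall in IV, and GC correction left 1 rise in III. The fold change rule called 1997 genes higher and 1027 lower, with 0 of the 39 higher and 1 lower: 0 rises in any complex, 1 fall in III and 0 in II, IV and V. The log2 ratio of summed levels was -0.15, -0.15, 0.21 and -0.03 for II to V. With TMM-rescaled TPM it was -0.23, -0.23, 0.13 and -0.11, and with CPM sums -0.27 for III and 0.068 for IV.

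A replicate block gave 9 rises and 15 falls among the 39 and 5000 and 5023 over all genes. The numbers did not pair the samples beyond a shared number (correlation of deviations 0.0393 for replicate 1).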
